A study of Homo sapiens with 3 samples.

Results

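B cell receptor signalling kinases and adaptors were followed in L428tetPU.1 cells after induction of PU.1. The 8 genes LYN, BLK, SYK, BLNK, BTK, PLCG2, VAV1 and SWAP70 were taken by name, and every probe annotated to them was used. They were chosen with earlier results of these data known. Each gene had 1 probe, which gave 8 of the 24303 named probes and 8 of the 19367 named genes on the array. L428 is an established line grown from classical Hodgkin lymphoma, a tumour of B cell origin. The derived line carries a tetracycline-regulated PU.1 gene. The SPI1 gene encodes PU.1, which regulates transcription in B cells and in myeloid cells. The cells were grown with 500 ng/ml tetracycline, and RNA was taken at day 0, day 1 and day 3 after its removal. The same line served at each day, so the regulated gene is shared by all 3 groups, and no line without it was analysed here. Whether the line is 1 clone, and which promoter drives PU.1, was not stated in the labels used here. The design text names 4 independent experiments, but each day had 1 array, so replicate error is unknown throughout and no test between days was possible.

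The B cell receptor starts a chain of phosphorylation. SRC family kinases such as LYN and BLK phosphorylate tyrosine motifs in the tails of CD79A and CD79B, and the kinase SYK docks there. SYK phosphorylates the scaffold BLNK, which brings BTK to its substrate PLCG2, and PLCG2 makes the messengers that release calcium and activate protein kinase C. VAV1 is an exchange factor that activates RAC, and SWAP70 is a lipid-binding protein of activated B cells that acts on RAC and the actin skeleton. LYN also starts inhibition, by phosphorylating receptors that recruit the phosphatases PTPN6 (SHP-1) and INPP5D (SHIP). Classical Hodgkin lymphoma cells have usually lost the receptor and much of the B cell programme. PU.1 is known to act on the promoter of BTK.

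For 5 of the genes the 200 bases before 1 annotated start are shown. These windows allow the start regions of genes whose RNA changed to be compared with that of BLNK, whose RNA was not detected. SYK RNA was not detected either, and its windows are described below but not printed. They run 5′ to 3′ on the strand of the gene and come from RefSeq, GRCh38.p14. Capitals mark the letters GAGGAA, the core of the PU box, on either strand (TTCCTC is the same motif on the opposite strand). BTK had 2 annotated starts, and only the window of start 1 is printed. The window of start 2, at chrX:101386192-101386391, held no GAGGAA on either strand. Which of these starts belongs to the BTK promoter on which PU.1 is known to act was not examined.
BTK, chrX:101390797-101390996, minus strand: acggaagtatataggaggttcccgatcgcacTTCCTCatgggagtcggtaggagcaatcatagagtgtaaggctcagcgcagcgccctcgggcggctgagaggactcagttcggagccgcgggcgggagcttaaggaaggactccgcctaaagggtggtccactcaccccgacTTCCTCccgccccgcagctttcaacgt
VAV1, chr19:6772508-6772707, plus strand: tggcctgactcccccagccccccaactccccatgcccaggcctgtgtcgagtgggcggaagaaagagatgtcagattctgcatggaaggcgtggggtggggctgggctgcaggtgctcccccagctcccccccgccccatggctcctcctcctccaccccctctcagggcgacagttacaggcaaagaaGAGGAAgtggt
PLCG2, chr16:81738841-81739040, plus strand: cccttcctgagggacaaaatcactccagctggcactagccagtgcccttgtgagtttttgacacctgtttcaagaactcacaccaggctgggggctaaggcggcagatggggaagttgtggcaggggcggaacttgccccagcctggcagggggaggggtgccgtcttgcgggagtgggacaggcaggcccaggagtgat
SWAP70, chr11:9663877-9664076, plus strand: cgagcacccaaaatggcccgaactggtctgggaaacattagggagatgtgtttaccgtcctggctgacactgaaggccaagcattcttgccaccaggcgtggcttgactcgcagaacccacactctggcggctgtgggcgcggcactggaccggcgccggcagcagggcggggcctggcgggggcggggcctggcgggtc
BLNK, chr10:96271570-96271769, minus strand: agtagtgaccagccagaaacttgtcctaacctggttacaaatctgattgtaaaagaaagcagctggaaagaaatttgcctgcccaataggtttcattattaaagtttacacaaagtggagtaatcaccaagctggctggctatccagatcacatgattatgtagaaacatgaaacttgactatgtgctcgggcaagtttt

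Of the 8 genes, 6 were matched to the promoter table, with 9 start sites. LYN and BLK were not matched. GAGGAA or its reverse complement stood in 6770 of all 35116 windows of this length, or 19.3%. The first BTK window held it 2 times on the opposite strand, at 169 to 164 and at 27 to 22 bases before the start, while the window of the second BTK start held none. The VAV1 window held it 1 time, at 11 to 6 bases before the start. The windows of PLCG2, SWAP70 and BLNK held none. Of the 3 SYK windows, which are not printed, the second held it 2 times and the third 1 time. The motif thus stood both before genes whose RNA rose and before SYK, whose RNA was not detected. The GC box GGGCGG, a second motif searched on both strands, overlapped no GAGGAA match in the windows of these genes. It stood in 40.1% of all windows, 3 times in the first BTK window, 2 times in each of the VAV1 and SWAP70 windows, 1 time in that of PLCG2 and not in that of BLNK. These matches describe letters only, and no binding was measured.

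A probe was taken as above background at a detection p-value under 0.01. Values called intensity are the deposited bead intensities, on a linear scale. Changes are differences in log2 signal after background correction and quantile normalization. A gene "rose" or "fell" if it changed by at least 2-fold (1 log2). Where only 1 of the 2 arrays was above background, the ratio of the brighter value to the other array's lowest value above background (or to the dim probe's own value, where higher) also had to reach 2-fold, and is written "at least N-fold". These bounds are on the background-corrected, normalized scale and move with the setting, so each is a bound under that processing only. The error of a change was estimated from the 416 genes for which all arrays had exactly 2 probes above background, and was 0.36 log2 at day 1, 0.29 at day 3 (both against day 0) and 0.31 between day 3 and day 1 (SD). In the dimmest 139 of these pairs it was 0.42, 0.33 and 0.35. It is error between probes and leaves out differences between cultures.

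On the 3 arrays 22.3% to 23.2% of 48701 probes were above background, and the median intensity lay between 35.9 and 36.8. The 1 SPI1 probe was not above background, at 40.8, 35.3 and 38.9 at day 0, day 1 and day 3, so the arrays give no check of the induction itself. All 8 markers of Reed-Sternberg cells, the tumour cells of this lymphoma, were above background on every array, and their intensities summed to 26477, 30404 and 32001 from day 0 through day 1 to day 3. The markers went both ways: CCL17 had 3488, 6070 and 8566 and CCL22 81.0, 221 and 1671, while TNFRSF8 had 1210, 1200 and 732. Of 9 B cell markers with a probe FCER2 was above background at day 0 and day 3, none was at day 1, and CD79A, CD79B, MS4A1 and PAX5 were not above background on any array. Of 9 myeloid markers 0, 1 and 1 were above background, ITGAM being the 1, and of 8 T cell markers none. The summed intensity was 472, 379 and 408 for the B cell list, 350, 567 and 467 for the myeloid list and 268, 288 and 294 for the T cell list at day 0, day 1 and day 3. ITGAM, an integrin of myeloid cells, had 61.6, 248.7 and 179.8 on these days and so moved with several of the genes below, while CD14, LYZ and MPO were not above background, and its part in the results was not tested.

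At day 1 after tetracycline removal 6 of the 8 genes rose over day 0, namely LYN, BLK, BTK, PLCG2, VAV1 and SWAP70. Over all 9311 genes measured, 9.19% rose and 7.98% fell. At day 3 5 of the 8 had risen over day 0 and VAV1 had not, against 4.95% rising and 2.13% falling of 9190 genes. None of the 8 fell in any comparison. Because the 8 genes were chosen with earlier results of these data known, their counts, medians and ranks beside all genes are descriptions only. SYK and BLNK were not above background on any array, so the count of genes measured was 6. BTK passed the detection filter only through the later arrays, where it was high, while the other 5 were above background on all arrays. In bulk RNA a change in the share of cells that carry a transcript and a change of RNA per cell cannot be told apart.

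**Figure D1:**
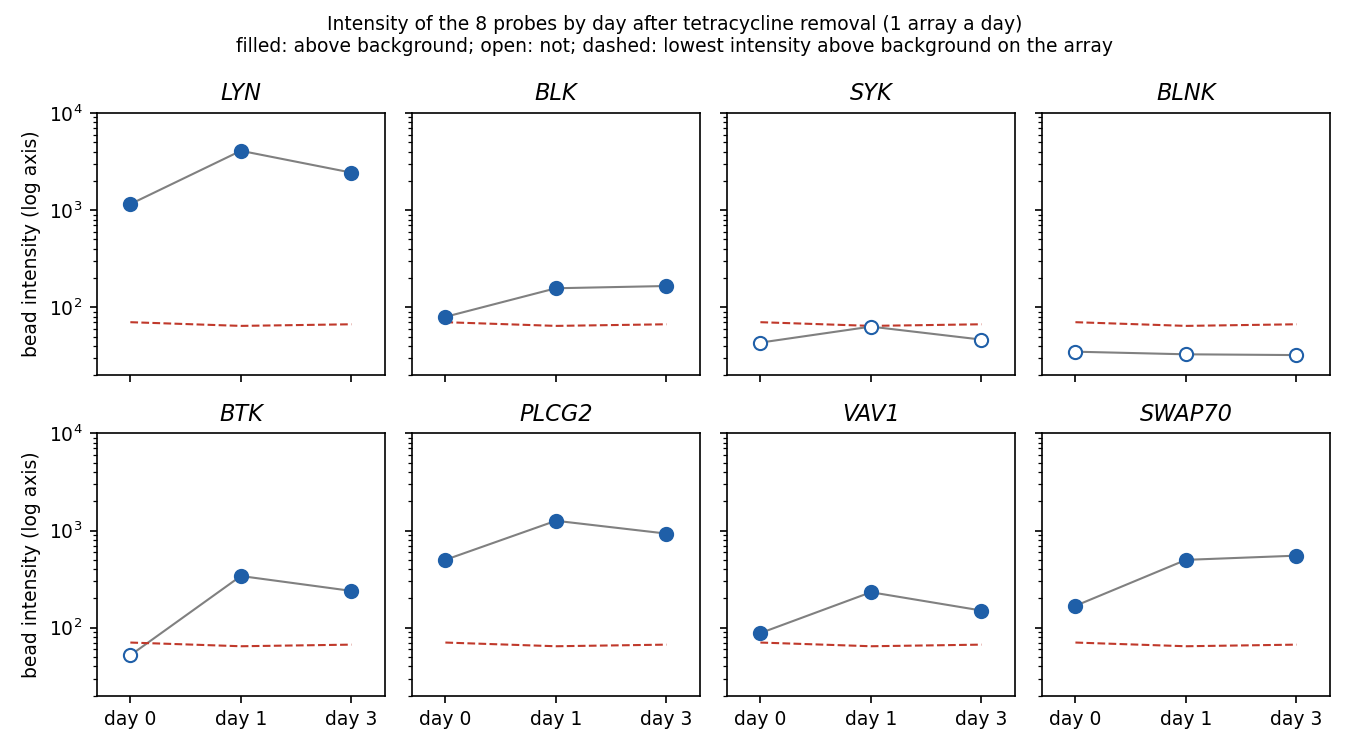
Deposited bead intensity (vertical, log axis) of the 1 probe of each gene at day 0, day 1 and day 3 (horizontal), 1 array a day and no error bars, with filled points above background and open points not, and a dashed line at the lowest intensity above background on each array (70.4, 64.5 and 67.0). LYN spans 1155 to 4084, BTK moves past the dashed line after day 0, and SYK and BLNK stay under it.

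LYN and BLK are the SRC family kinases at the start of the pathway. LYN had an intensity of 1155 at day 0, 4084 at day 1 and 2436 at day 3. The probe was lowest at day 0 and highest at day 1. It rose by 2.03 log2 at day 1, or 4.10-fold, and by 1.28 at day 3, or 2.43-fold, and the change from day 1 to day 3 was -0.76, which is 2.42 times the probe error. BLK had an intensity of 79.9, 157 and 166 on the same days, with a detection p-value of 0.00364 at day 0 and 0.00073 on both later arrays. It was dim throughout and near the background limit at day 0. BLK rose by 1.23 log2 at day 1 and by 1.27 at day 3, a step of 0.039 between them that is well under the probe error of 0.31. Its calls at both days ended with an offset of 50, at 0.90 and 0.93.

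SYK, the kinase that docks on the receptor, had an intensity of 43.4 at day 0, 63.4 at day 1 and 46.6 at day 3. Its detection p-values were 0.109, 0.0109 and 0.0735. Its day 1 value lay just under the lowest intensity above background on that array, 64.5, so no fold is given for it. BLNK, the scaffold that SYK phosphorylates, had 35.0, 32.9 and 32.3, with detection p-values of 0.286, 0.360 and 0.410. All 3 were under the lowest intensity above background. The step between the receptor and BTK was thus read by no probe above background: SYK and BLNK were not detectable at this cutoff, which does not show that their RNA was absent. At a detection p-value under 0.05 SYK would count as above background at day 1, and it did not pass the 2-fold rule there. BLNK stayed under background at that cutoff.

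BTK, the TEC family kinase that activates PLCG2, had an intensity of 52.1 at day 0, 341 at day 1 and 239 at day 3. Its detection p-value was 0.0393 at day 0 and 0 on the later arrays. It was above background at day 1 and day 3 and not at day 0. BTK was at least 6.42-fold higher at day 1 and at least 4.24-fold higher at day 3 on the background-corrected scale. Under the 4 other scalings or background settings the bound ran from 4.30-fold to 6.29-fold at day 1 and from 2.97-fold to 4.17-fold at day 3, lowest with an offset of 50, and the call held in each. The measured differences, which use its day 0 value below background, were 3.28 and 2.69 log2. Day 3 was lower than day 1 by a change of -0.60, or 1.91 times the probe error, which is not past the rule. RPL36A has its annotated start next to an annotated BTK start, on the opposite strand. Its intensity was 92.1 at day 1 and 103 at day 3, against 111 at day 0. The RPL36A changes of -0.27 and -0.11 did not pass the rule.

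PLCG2, the phospholipase that BTK activates, had an intensity of 500 at day 0, 1261 at day 1 and 930 at day 3. It rose by 1.55 log2 at day 1 and by 1.11 at day 3. Day 3 set against day 1 gave -0.44, 1.41 times the probe error. The call at day 3 ended in the authors' values, at 0.89, and with scaling to the 75th percentile, at 0.91. These settings move the median of all genes above background on both arrays at day 3, by -0.10 in the authors' values and by -0.12 with the percentile. Relative to that median PLCG2 changed by 1.19 as reported, by 1.07 in the authors' values and by 1.11 with the percentile. The calls do not use this step. It would also put VAV1 past the rule at day 3 as reported, at 1.002, but not in the authors' values, at 0.946. BLK with an offset of 50 would stay short of the rule, at 0.973 at day 1 and 0.999 at day 3. Whether scaling accounts for the lost PLCG2 calls was not tested.

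VAV1, an exchange factor of blood cells, had an intensity of 88.1 at day 0, 232 at day 1 and 150 at day 3. All 3 were above background, with day 1 the highest. It rose by 1.68 log2 at day 1. At day 3 its change was 0.92, or 1.90-fold, which did not pass the rule but is 3.16 times the probe error, and day 3 against day 1 gave -0.76. SWAP70 had an intensity of 168, 499 and 552 at day 0, day 1 and day 3. It rose by 1.83 log2 at day 1 and by 1.94 at day 3, and the 2 later days differed by 0.11, less than the probe error.

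Of the 5 genes above background on all arrays, SWAP70 and BLK had 106% and 103% of their day 1 log2 change at day 3. PLCG2 had 71.5%, LYN 62.9% and VAV1 54.9%. Whether these shares differ between genes was not tested. Between day 3 and day 1 none of the 6 measured genes passed the rule in either direction, where 3.54% of 9318 genes rose and 3.92% fell, and 4 of them (LYN, VAV1, BTK and PLCG2) were lower at day 3 by more than the probe error. The median change of the genes above background on both arrays was 1.68 at day 1 and 1.27 at day 3 against day 0 (5 genes) and -0.52 between day 3 and day 1 (6 genes). Over all genes above background on both arrays it was -0.09, -0.08 and 0.00. Among 8312 such genes at day 3, SWAP70 had the 79th highest change, LYN the 209th, BLK the 213th, PLCG2 the 298th and VAV1 the 431st. Among 8198 at day 1, LYN was 131st, SWAP70 179th, VAV1 218th, PLCG2 281st and BLK 474th. The comparisons with day 0 share the day 0 array, so the day 1 and day 3 changes of a gene are not independent.

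**Figure D2:**
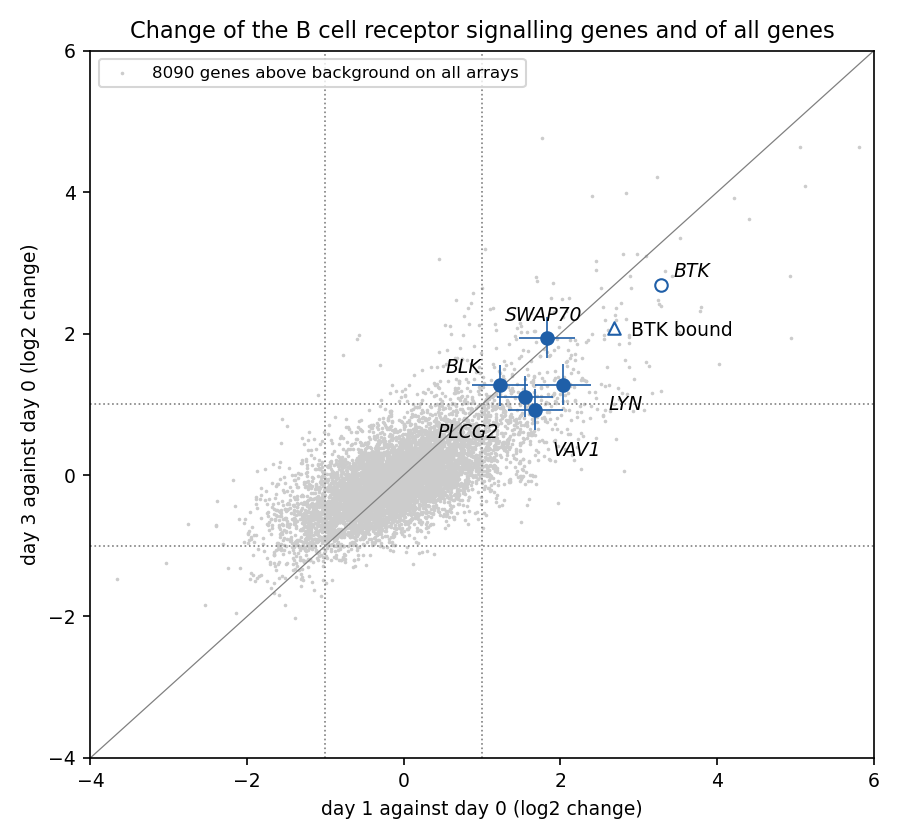
Change at day 1 against day 0 (horizontal, log2) and at day 3 against day 0 (vertical, log2) of genes above background on all arrays (grey) and of the signalling genes (blue, bars 1 SD of the probe error), with dotted lines at 2-fold and a diagonal of equal change. BTK is drawn open because its day 0 value was not above background, with its bound as a triangle. SWAP70 and BLK lie by the diagonal, and LYN, PLCG2 and VAV1 below it.

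The 6 genes kept a positive change, each lower than as reported, at both days in all 4 other scalings or background settings. At day 1 LYN ranged over them from 1.86 to 2.02, SWAP70 from 1.61 to 1.72, VAV1 from 1.32 to 1.64, PLCG2 from 1.38 to 1.52 and BLK from 0.90 to 1.21, as the plot of changes by setting shows. The counts over all genes depended more on the scaling. At day 1 856 genes rose and 743 fell, against 642 and 854 in the authors' values and 727 and 1004 with percentile scaling. At day 3 455 rose and 196 fell, against 315 and 259 in the authors' values and 374 and 363 with percentile scaling.

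**Figure D3:**
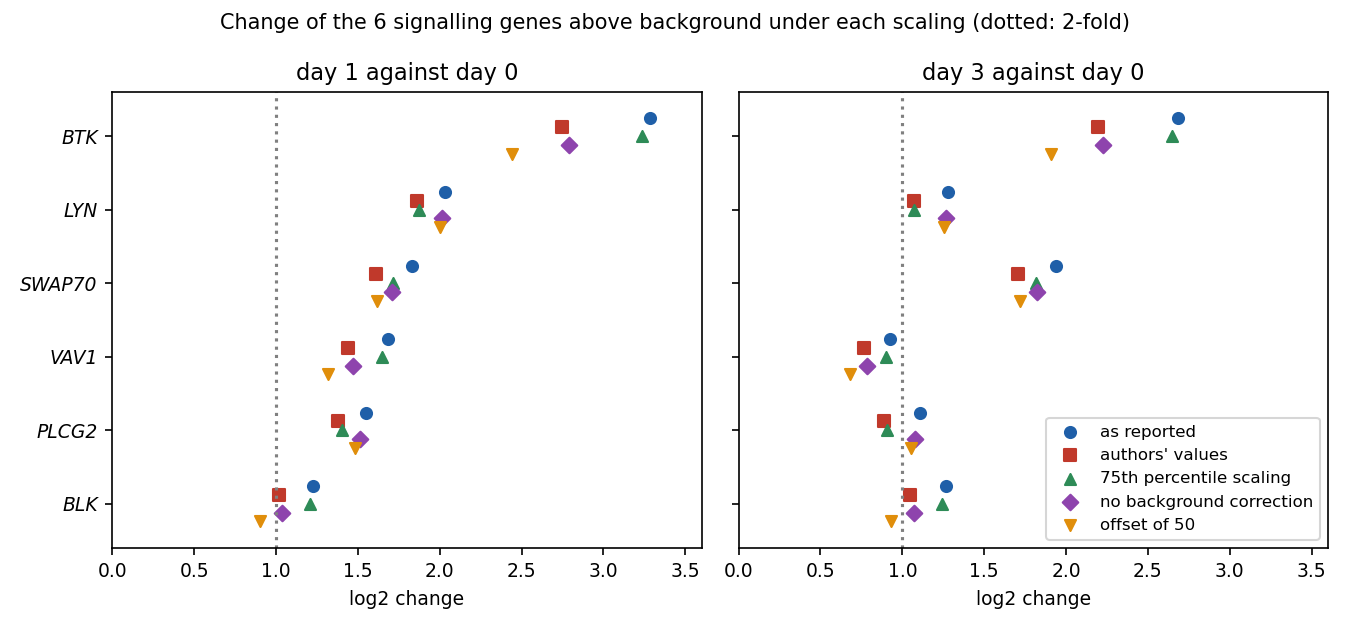
Log2 change at day 1 (left) and day 3 (right) against day 0 of the 6 genes above background (rows) as reported and under 4 other scalings or background settings (symbols), with a dotted line at 2-fold. Every symbol lies above 0. The BTK points use its day 0 value below background, BLK passes under the line with an offset of 50, and PLCG2 at day 3 in the authors' values and with percentile scaling.

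For each measured gene the 3 genes with the nearest pair of changes against day 0 were found among genes above background on the same arrays, by distance in log2 units over these 2 values. Those of BTK, among 398 genes, were CD53 at a distance of 0.12, TMCC2 at 0.15 and AADACL4 at 0.26. Like BTK, all 398 were not above background at day 0, so these distances use day 0 values below background. The nearest to LYN, among 8089 genes, were TTLL3, AHCYL2 and CD80 (0.084 to 0.11), and to BLK SUCO, KCNN4 and CCDC85A (0.033 to 0.053). PLCG2 lay nearest DNAJC25-GNG10, RHOQP3 and HECA (0.044 to 0.072), VAV1 nearest KAT2B, NEK6 and GYS1 (0.0059 to 0.044), and SWAP70 nearest KLHL28, SLC2A3 and GBP5 (0.13 to 0.16). With 2 values that share an array such nearness is a description only.

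The rest of the pathway was read from 10 lists with 126 further genes, of which 105 had a named probe. At day 1 62 were measured, 17 rose and 3 fell, or 27.4% and 4.84%, beside 9.19% and 7.98% of all genes. At day 3 65 were measured and 9 rose, or 13.8%, and 0 fell, beside 4.95% and 2.13% of all genes. The median change of those above background on both arrays was 0.31 at day 1 (56 genes) and 0.073 at day 3 (58 genes). The lists overlap in function with the 8 genes and were drawn up with earlier results of these data known.

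Few parts of the receptor itself were detected. Of the receptor complex and coreceptor list only CD81, a tetraspanin, was measured, at 2886 at day 1 and 3856 at day 3, against 5344 at day 0, with changes of -0.76 and -0.34 that did not pass the rule. CD79A and CD79B, which carry the tyrosine motifs, were not above background.

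Relatives of the 8 genes differed among themselves. In the SRC family 2 of 3 further measured kinases rose at both days, beside 3.38% of 9001 genes measured in both comparisons with day 0. SRC had an intensity of 144 at day 0, 884 at day 1 and 752 at day 3 and rose by 2.90 and 2.65 log2. FYN had 96.7, 496 and 173 and rose by 2.69 and 1.00, while its second probe above background changed by 2.15 and 0.48, so the day 3 call rests on 1 probe. It ended in all 4 other settings, at 0.77 to 0.97. YES1 changed by -0.21 and -0.08. TEC, a relative of BTK, was above background at day 1 alone, at a bound of 1.07-fold. LCP2, the T cell and myeloid counterpart of BLNK, had 30.7 at day 0, 88.2 at day 1 and 91.5 at day 3. It was above background on the later arrays, but at bounds of 1.36-fold and 1.39-fold it did not pass the rule. VAV2 changed by 0.33 and 0.65 and PLCG1 by -0.17 and -0.33, and neither passed the rule, while VAV3 and DEF6, the relative of SWAP70, were not above background.

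Of the further exchange factors 3 of 5 measured rose at day 1 and 2 of 6 at day 3, beside 9.19% and 4.95% of all genes. On these days 0 fell, beside 7.98% and 2.13% of all genes. RASGRP1, which activates RAS, rose by 2.33 at day 1 and 1.89 at day 3, and RASGRP3 by 1.53 at day 1 with 0.81 at day 3. DOCK2, an exchange factor for RAC, rose by 1.04 at day 1 with 0.26 at day 3, and its call ended in the authors' values and with percentile scaling, at 0.87 in both. DOCK8 was not above background at day 0 or day 1, and was at least 2.33-fold higher at day 3. That call ended without background correction, in the authors' values and with an offset of 50, at bounds of 2.00-fold (just short of the rule), 1.98-fold and 1.81-fold. DAPP1, an adaptor that binds the lipids made by phosphoinositide 3-kinase, had 133 at day 0, 319 at day 1 and 370 at day 3, and rose by 1.49 and 1.69. It was the only 1 of 7 measured genes of that branch to pass the rule, and PIK3CD, the kinase subunit of lymphocytes, changed by -0.28 and 0.06.

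Downstream of PLCG2 the shares that rose at day 1, 2 of 15 and 1 of 8, stood beside 9.19% of all genes. At day 3 they were 0 of 15 and 1 of 8, beside 4.95%, and nothing is read from these shares. Of 15 measured genes of the phospholipase and calcium list, ITPR2, an inositol trisphosphate receptor, rose by 1.05 and ITPKB, an inositol trisphosphate kinase, by 1.04 at day 1, and 0 passed at day 3. Both calls ended without background correction, in the authors' values and with an offset of 50, at 0.73 to 0.88. ITPR1 changed by 0.23 and 0.34. PRKCD, a protein kinase C, was the only 1 of 8 genes of its list to pass. It had 1069 at day 0, 4413 at day 1 and 2384 at day 3, and rose by 2.27 and 1.36. PRKCB changed by -0.22 and -0.24 and MAP3K7 by 0.25 and 0.04. In the RAS and MAPK list, SHC1, an adaptor, rose by 1.87 at day 1 and changed by 0.21 at day 3, and GAB2, a docking adaptor, rose by 1.13 and 1.02. The GAB2 calls ended in the authors' values and with percentile scaling, at 0.96 and 0.97 at day 1 and 0.82 and 0.83 at day 3, where the call also ended without background correction, at 0.99, and with an offset of 50, at 0.97. HRAS fell by 1.29 at day 1, and RAC2 changed by 0.32 and 0.08.

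Of 11 measured inhibitory genes 6 rose and 2 fell at day 1, beside 9.19% and 7.98% of all genes, and 2 rose and 0 fell at day 3, beside 4.95% and 2.13%. PTPN6 had an intensity of 84.1 at day 0, 1033 at day 1 and 213 at day 3 and rose by 4.02 and 1.57 log2, and its 2 other probes were not above background. INPP5D had 119, 1325 and 502 and rose by 3.78 and 2.32. SLA, an adaptor that dampens receptor signalling, was at least 6.09-fold higher at day 1 (4.10-fold to 5.97-fold in the 4 other settings), and at day 3 its bound of 1.58-fold did not pass. CSK, which phosphorylates the inhibitory tail of LYN, rose by 1.06 at day 1 and changed by -0.37 at day 3, and its call ended in the authors' values and with percentile scaling, at 0.89 in both. INPPL1 and CBLB, named after their values were seen, rose by 1.63 and 1.23 at day 1, and the CBLB call ended with an offset of 50, at 0.99. PTPN22, a phosphatase that acts on SRC kinases, was at least 2.91-fold lower at day 1 on the background-corrected scale, with bounds of 2.12-fold to 3.01-fold in the 4 other settings and a change of -0.97 on its second probe. PAG1, which recruits CSK and was named after its value was seen, fell by 1.24, a call that ended with an offset of 50, at -0.86. The phosphatase PTPN11 changed by -0.27 at both days. Between day 3 and day 1, 5 of 12 measured inhibitory genes fell and 0 rose, beside 3.92% and 3.54% of all genes. The changes were -2.45 for PTPN6, -1.95 for SLA, -1.45 for INPP5D, -1.43 for CSK and -1.04 for INPPL1. Of the 6 measured signalling genes 0 fell by the 2-fold rule. This count depends on the cutoff, since LYN at -0.76, VAV1 at -0.76 and BTK at -0.60 passed a 1.5-fold rule as lower. Whether the difference between these lists exceeds chance was not tested.

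**Figure D4:**
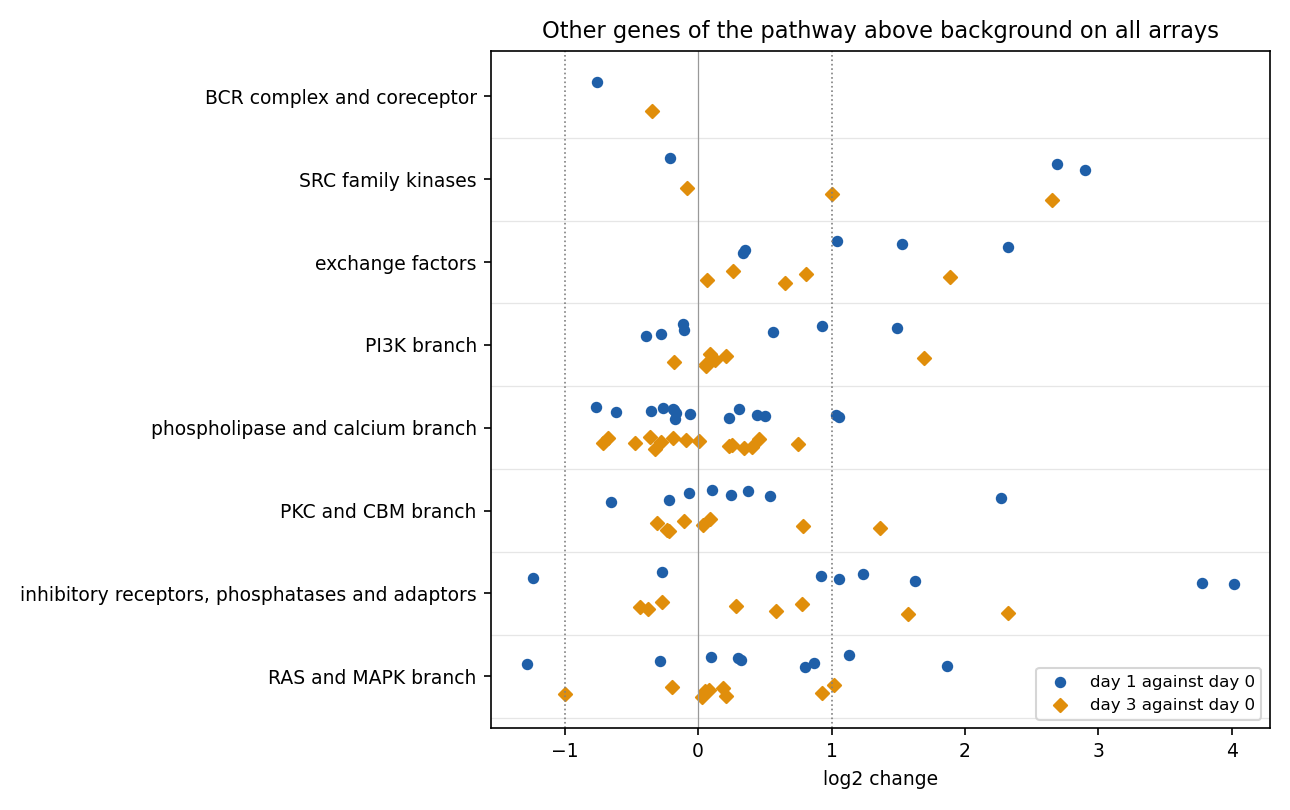
Log2 change at day 1 (circles) and day 3 (diamonds) against day 0 of 56 further pathway genes above background on all arrays, by list (rows), with dotted lines at 2-fold. Each point is 1 gene by its brightest probe, without error bars. PTPN6 and INPP5D are the 2 circles near 4, and most points of the calcium list lie within 2-fold.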

How the data were processed

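The deposited table of bead intensities and detection p-values, which the authors left non-normalized per the file headers, was read for 3 arrays. Per the submitters' processing notes, BeadStudio 3.3.7 was used. The log2 values that the authors deposited equal log2 intensities centred on each array's 75th percentile and then on each probe's median, to within 2.48e-06, so they hold differences between days only, and they served as an alternative. Intensities were background corrected (normexp from detection p-values, limma 3.58.1 in R 4.3.3), given an offset of 16 and quantile normalized. Quantile normalization removes any shift common to most genes. The offset draws changes of dim probes toward 0, and an offset of 50 does so further. With this offset of 16 the background-corrected changes still exceeded those without correction. BTK changed by 3.28 log2 at day 1 as reported and by 2.79 without background correction. Inferred background means were 32.5 to 33.2. Further steps used Python 3.11.15, pandas 2.3.3, numpy 2.4.6 and matplotlib 3.10.9.

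Probes were named from platform annotation, with symbols updated from RefSeq (GRCh38.p14): 24089 by gene ID, 50 by accession and 164 by platform symbol, while 24398 probes had no name and 0 had several. The brightest probe stood for a gene. The number of arrays limits the precision.

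The members and lists were chosen with earlier results of these data known. Named genes were the 8 members, up to 4 genes of each list with the largest change among those past the size rule, 1 not past it with the highest signal, 17 fixed genes and 3 nearest genes for each member. Cell type markers came from separate lists, and RPL36A was named as the neighbour of BTK. The others, INPPL1, CBLB and PAG1, are marked where they appear. GAPDH changed by -0.10 and -0.08 and ACTB by -0.21 and 0.00 at day 1 and day 3 against day 0. Some items are not reported here. The promoter windows were limited to 200 bases. Whether the first BTK window overlaps the neighbour RPL36A was not examined here.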

Additional observations from a re-analysis of the deposited data

How the results depend on the processing

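Of 8 alternatives, 4 alter the values of these genes, and under them the 6 genes above background kept a positive change at day 1 and day 3 against day 0. The mean of a gene's probes could alter nothing, since each gene had 1 probe. Under the 3 that alter only the filter or the size rule, 6 passed at day 1, and 5 or 6 at day 3. Of 72 values of the 6 measured genes under the 4 settings, 68 kept their call or moved by less than the probe error, and 4 lost their call: BLK at 0.90 (day 1) and 0.93 (day 3) with an offset of 50, and PLCG2 at day 3 at 0.89 in the authors' values and 0.91 with percentile scaling. A 1.5-fold rule gave 3625 genes in place of 1599 at day 1, 2257 in place of 651 at day 3, and 2375 in place of 695 between day 3 and day 1. By its construction it also passed 3 of the 8 genes, BTK, LYN and VAV1, as lower at day 3 than at day 1. An offset of 50 by its construction draws changes of dim probes further toward 0. It gave 1202 genes at day 1, 438 at day 3 and 463 between day 3 and day 1. No paired analysis was possible because each day had 1 array. Each gene rests on 1 probe, and signal over background limits BLK, VAV1, SYK, BLNK and the day 0 value of BTK.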
